A study of Mus musculus with 3 samples.

Results

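Nuclear copies of mitochondrial sequence were examined in the RNA of ovulated mouse oocytes. The members were 600 bins of 100 bases in 5 nuclear intervals of the mm9 genome, out of 27257210 such bins in all. They comprised 200 bins on chromosome 1 (bases 24610001 to 24630000), 100 on chromosome 2 (22440001 to 22450000), 100 on chromosome 12 (98290001 to 98300000), 100 on chromosome 10 (95540001 to 95550000) and 100 on chromosome 6 (9830001 to 9840000). The intervals had been picked because alignment counts on the mitochondrial chromosome recurred in them in these same libraries. Levels and recurring counts are therefore a description, without a test.

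The data came from 3 libraries, 1 for each of 3 litters of a single group, wild-type ovulated oocytes. The females were superovulated, of mixed strain background and LSD1 FL/FL, that is, homozygous for floxed alleles of the histone demethylase gene, and they were negative for ZP3::Cre, a transgene with an oocyte promoter, so all 3 litters share the floxed alleles without the recombinase. Oocytes were collected by E0.5, and their total RNA was amplified by SPIA, a linear isothermal amplification of cDNA, before Illumina library construction. The labels give neither the females' age nor the number of oocytes per litter, and nuclear marker genes of the oocyte were not checked here because the annotation used is on another build. The libraries held 31787887 to 35183199 alignments of 72 bases, and litter 3 stood apart, with 31178 alignments per 1e6 (CPM) on the mitochondrial chromosome against 16479 and 14086 for litters 1 and 2.

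Pieces of the mitochondrial genome have been inserted into nuclear chromosomes throughout animal evolution and are called NUMTs. Most are pseudogenes that carry no promoter of their own, and the mitochondrial genetic code differs from the nuclear one, so that an intact mitochondrial reading frame usually meets stop codons in the nucleus. Oocytes are very rich in mitochondria, and a short read of a mitochondrial transcript can align to a nuclear copy as well as to its source when the sequences are alike.

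The chromosome 1 and chromosome 2 copies could be read as sequence, since their parts are annotated as pseudogenes in GENCODE M21. The pseudogene sequences and coordinates are those of GRCm38, while the coverage is on mm9, so the builds were joined only through the mitochondrial position. The 7 annotated pieces on chromosome 1 were Gm29216 (to mt-Co1), Gm28661 (mt-Co2), Gm10925 (mt-Atp6), Gm28437 (mt-Co3), Gm28438 (mt-Nd3), Gm10222 (mt-Nd4l) and Gm28439 (mt-Nd4), which lie in this order from the highest to the lowest coordinate (GRCm38 chr1:24611535-24616197, minus strand). No other gene of the annotation overlaps them, and the nearest, Tubb4b-ps2, is 16112 bases away. They differed from the mitochondrial sequence at 2 of 4140 aligned bases (99.95% identity). The outermost 9 of the 492 bases of Gm29216 did not align and are not counted. The 3 chromosome 2 pieces were Gm13339 (mt-Nd2), Gm13340 (mt-Co1) and Gm13341 (mt-Co2), on GRCm38 chr2:22587291-22590533 and the minus strand. They lie within Myo3a, a myosin gene on the plus strand, and touch 0 of its exons, so they are intronic and antisense to it. They differed at 70 of 2727 aligned bases (97.4% identity).

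Both differing bases in the aligned parts of the chromosome 1 pseudogenes are shown first, because stretches of identical depth ended beside them. The capital marks the differing base, the upper line of each pair is the mitochondrial gene and the lower line the nuclear copy. Differences are written with the mitochondrial base first, then its position from base 1 of the mitochondrial chromosome, then the base of the copy. The first pair holds T9461C, the third base of the first codon of mt-Nd3 (mitochondrial bases 9459 to 9518 and GRCm38 chr1:24613060-24613119, minus strand).
mt-Nd3: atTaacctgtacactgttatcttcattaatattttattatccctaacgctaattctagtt
Gm28438: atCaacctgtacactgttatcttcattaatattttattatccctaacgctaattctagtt
The second pair holds A6393T, at the end of the copy within mt-Co1 (bases 6390 to 6449 and GRCm38 chr1:24616129-24616188, minus strand).
mt-Co1: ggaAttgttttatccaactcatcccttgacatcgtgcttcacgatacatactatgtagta
Gm29216: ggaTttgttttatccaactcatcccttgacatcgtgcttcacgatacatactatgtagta

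For the chromosome 2 copy of mt-Co1, 72-base windows with 0 to 4 differing bases are shown, because the counts on the copy followed this number. Each is the window of its kind with the most mitochondrial alignments, and capitals mark the differences. With 0 differences (bases 5650 to 5721, GRCm38 chr2:22589254-22589325) both sequences read the same.
mt-Co1 and Gm13340, 0 differences: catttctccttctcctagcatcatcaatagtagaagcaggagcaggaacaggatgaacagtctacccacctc
With 1 difference, C5640T (bases 5588 to 5659, GRCm38 chr2:22589316-22589387):
mt-Co1: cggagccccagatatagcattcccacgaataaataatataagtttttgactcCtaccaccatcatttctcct
Gm13340: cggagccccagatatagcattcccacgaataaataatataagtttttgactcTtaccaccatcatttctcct
With 2 differences, G5909T and G5930A (bases 5896 to 5967, GRCm38 chr2:22589008-22589079):
mt-Co1: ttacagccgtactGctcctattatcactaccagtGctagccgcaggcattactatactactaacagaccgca
Gm13340: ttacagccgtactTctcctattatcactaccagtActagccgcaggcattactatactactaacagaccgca
With 3 differences, C5846T, G5861A and G5909T (bases 5844 to 5915, GRCm38 chr2:22589060-22589131):
mt-Co1: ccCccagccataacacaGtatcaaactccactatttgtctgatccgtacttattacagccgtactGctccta
Gm13340: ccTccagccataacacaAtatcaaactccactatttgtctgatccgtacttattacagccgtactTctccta
With 4 differences, A5789G, A5795G, T5828C and C5846T (bases 5781 to 5852, GRCm38 chr2:22589123-22589194):
mt-Co1: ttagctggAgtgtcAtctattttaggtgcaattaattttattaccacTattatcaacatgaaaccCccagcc
Gm13340: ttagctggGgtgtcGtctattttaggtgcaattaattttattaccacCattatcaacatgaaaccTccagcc

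Gm13341 also lacks 12 bases of mt-Co2 (bases 7445 to 7456), in capitals in the mitochondrial line (bases 7421 to 7480 and GRCm38 chr2:22587507-22587554, minus strand). This pair is shown because the place of identical counts moved by the same number of bases. Outside the missing bases, 1 further base differs in it.
mt-Co2: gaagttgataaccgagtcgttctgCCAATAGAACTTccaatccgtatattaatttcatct
Gm13341: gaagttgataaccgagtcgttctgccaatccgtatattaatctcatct

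The differences of the chromosome 2 copy lay mostly where they leave the protein unchanged. Of its 70 differing bases, 61 were transitions and 9 transversions. By codon position of the mitochondrial gene, 8 fell on the first, 5 on the second and 57 on the third base. In the vertebrate mitochondrial code, 61 of the altered codons kept their amino acid and 9 did not. Read in the standard nuclear code, the aligned part of Gm13340 held 18 stop codons before its end in 515 codons, and 0 in the mitochondrial code. Gm28661, identical to mt-Co2 over 681 bases, held 5 in 227 codons in the standard code. The short Gm10222, identical to its part of mt-Nd4l, held 0 in 98 codons, and the other pieces held 3 to 12. These counts come from the reference sequence alone.

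Depth was confined to a few short blocks of the intervals. Of the 600 bins, 93 (15.5%) had depth in all 3 litters, against 1.23% of all bins of the genome. This was what the intervals were chosen for, so nothing is read from the difference. The covered bins numbered 48 on chromosome 1, 33 on chromosome 2, 4 on chromosome 12, 7 on chromosome 10 and 1 on chromosome 6. Another 505 bins held 0 alignments in every litter, and the last 2 held a lone alignment of litter 1. A count of 0 allows up to 3 alignments per library, or 0.0853, 0.0944 and 0.0937 CPM in litters 1, 2 and 3. The Wilson intervals and floors given here cover counting error only, since amplified reads are not independent molecules.

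On chromosome 1 the depth formed a single unbroken block of 4669 bases, from 24618367 to 24623035. The bases of the interval on either side of it were empty in all litters. On chromosome 2 there were 3 blocks, of 197 bases (22442809 to 22443005), 2222 bases (22443043 to 22445264) and 738 bases (22445319 to 22446056). The lone alignment of litter 1 lay apart from them. On chromosome 12 a block of 375 bases (98299633 to 98300007) reached the end of the interval, which held 368 of its bases. On chromosome 10 a block of 378 bases (95540157 to 95540534) held nearly all alignments, and a second place of 83 bases held 7, 9 and 10. On chromosome 6 the interval held 98 bases of a block of 264 (9839903 to 9840166), so its level covers only a part of that block.

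**Figure D1:**
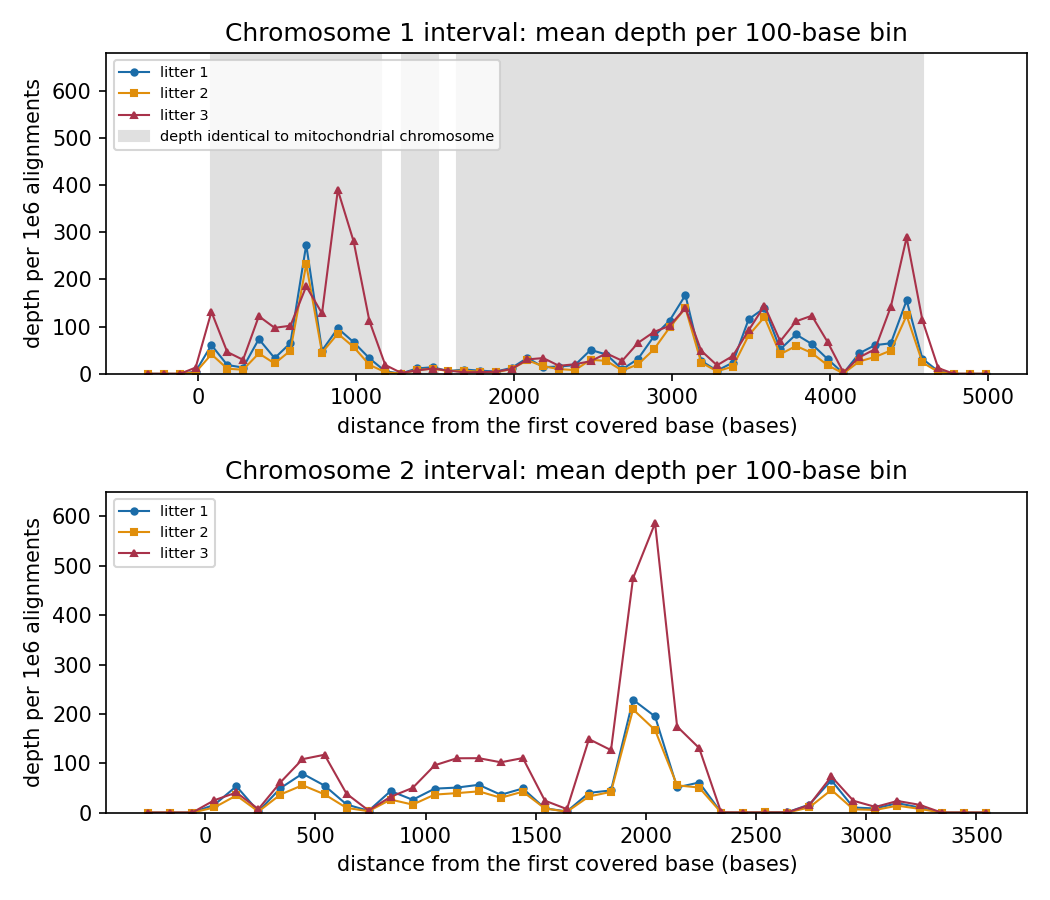
Mean depth per 100-base bin, as depth per 1e6 alignments, against the distance in bases from the first covered base of the chromosome 1 interval (upper panel) and the chromosome 2 interval (lower panel). Lines are the 3 litters and grey marks the 3 stretches whose depth was identical to the mitochondrial chromosome. The chromosome 1 block is continuous and mostly grey, while chromosome 2 has 3 blocks and no grey.

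The chromosome 1 interval had the highest level, with 3250, 2471 and 5084 CPM for litters 1, 2 and 3 (3602 ± 1342, SD, n = 3). CPM is the summed depth divided by the 72 bases of an alignment, per 1e6 alignments of the library. It is a sum over the interval and so rises with the covered length, which was 4669 bases on chromosome 1 and 368 on chromosome 12. The order of the intervals is therefore not an order of depth per covered base. The chromosome 2 interval stood at 1870, 1499 and 3958 CPM (2442 ± 1325, SD, n = 3). The chromosome 12 interval stood at 406, 402 and 614 CPM (474 ± 121, SD, n = 3). All of these were highest in litter 3, and the order of the intervals was the same in every litter although the means lay within each other's spread on chromosomes 1 and 2. The chromosome 10 interval stood at 241, 246 and 513 CPM (333 ± 156, SD, n = 3), and the 98 bases on chromosome 6 at 30.4, 30.1 and 54.0 CPM (38.2 ± 13.7, SD, n = 3). Litters 1 and 2 differed from each other less than either did from litter 3 in all 5 intervals. Each litter is 1 bulk library and CPM is a share of it, so these values show neither the RNA per oocyte nor the number of oocytes. The spread between litters may be technical.

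**Figure D2:**
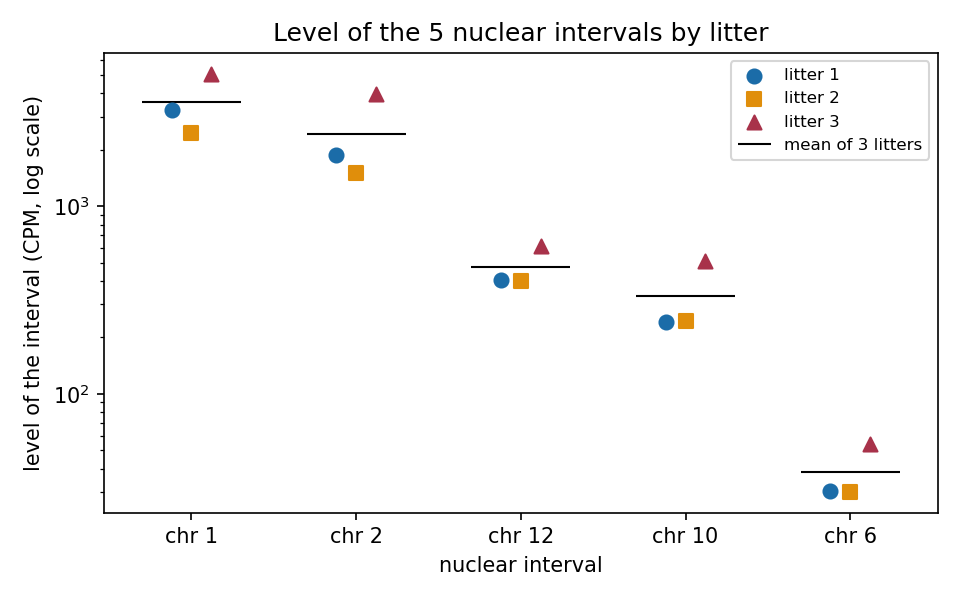
Level of each nuclear interval in CPM on a log axis, with 1 point per litter and a line at the mean of 3 litters. Litter 3 is the highest in every interval, from 54.0 CPM on chromosome 6 to 5084 CPM on chromosome 1. Each level is a sum over the interval and rises with its covered length.

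Together the 5 intervals held 5797, 4648 and 10223 CPM in litters 1, 2 and 3 (6889 ± 2944, SD, n = 3). That depth was counted beside the depth of the mitochondrial chromosome itself and came to 35.2%, 33.0% and 32.8% of it (33.7% ± 1.32, SD, n = 3). The intervals on chromosomes 1 and 2 made up 87.4% ± 1.71 (SD, n = 3) of the total. These levels depend on the scaling. With each start position counted once they were 751, 450.5, 62.5, 60.6 and 20.1 CPM on chromosomes 1, 2, 12, 10 and 6, and with the library total taken without its 100 highest windows of 1 kb they were 5487, 3679, 726, 503 and 58.0 CPM.

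A stretch was called identical where the depth of at least 100 neighbouring bases equalled the mitochondrial depth in all 3 libraries at a constant offset, with at least 10 changes of depth. There were 4 such stretches, with 4358 bases in all, and no other outside the mitochondrial chromosome in the whole genome. They touched 47 of the 600 bins, which is again what the intervals were chosen for. These same 47 bins were the only ones touched among all bins outside the mitochondrial chromosome, or 0.000172% of them. The longest ran over 2947 bases of chromosome 1 (24620006 to 24622952), matched mitochondrial bases 6465 to 9411 in reversed orientation and held 2885 changes of depth. Its mean scaled depth, in depth per 1e6 alignments, was 50.7, 38.0 and 65.1 for litters 1, 2 and 3. The next, of 1080 bases (24618445 to 24619524), matched bases 9892 to 10971, also reversed, with a mean scaled depth of 70.2, 55.2 and 146. Between them lay a stretch of 231 bases (24619655 to 24619885) that matched bases 9532 to 9762, reversed, at 10.1, 7.43 and 7.28. This shallow stretch was the only one of the 4 with its highest depth in litter 1. On chromosome 12, a stretch of 100 bases (98299709 to 98299808) matched bases 15746 to 15845 in the same orientation, at 65.9, 74.7 and 112, and so lay exactly at the length limit.

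The stretches made up 96.9% ± 0.738 (SD, n = 3) of the depth of the chromosome 1 interval and 24.5% ± 1.74 of that on chromosome 12. They made up 0% on chromosomes 2, 10 and 6. Outside stretches, the 5 intervals kept 2543, 2137 and 5182 CPM (3287 ± 1653, SD, n = 3). The highest bins outside stretches were both on chromosome 2, at 195, 167 and 587 in litters 1, 2 and 3 (22444801 to 22444900) and at 229, 209 and 475 (22444701 to 22444800), in depth per 1e6 alignments. In both, litter 3 lay far above the other litters. The next bins were on chromosome 12 (98299901 to 98300000), at 140, 131 and 182, on chromosome 10 (95540401 to 95540500), at 78.6, 86.6 and 141, and on chromosome 2 (22444901 to 22445000), at 51.1, 55.2 and 174. Inside stretches, the highest bin was on chromosome 1 (24619001 to 24619100), at 274, 232 and 186, and there litter 3 was the lowest. The only covered bin on chromosome 6 (9839901 to 9840000) stood at 21.9, 21.7 and 38.9.

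The borders of identical depth on chromosome 1 lay at or near the places where the sequences differ or the copy ends. Identity began at mitochondrial base 6465, the first base that no alignment over A6393T can reach. The copy Gm28439 ends at mitochondrial base 11042, and identity ended at base 10971, the last base before alignments that run past this end begin. Downstream of T9461C, the first base out of reach of alignments over it is 9533, and identity resumed at base 9532. The alignments that start on the differing base itself numbered 15, 23 and 13 on both chromosomes. Upstream, the last base out of reach is 9389, and identity lasted up to base 9411.

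Counts beside these borders differed to unlike degrees. A total of 136, 139 and 170 alignments crossed T9461C on the mitochondrial chromosome in litters 1, 2 and 3, and 128, 137 and 174 crossed the same place on chromosome 1 (98.3% ± 4.12 of the mitochondrial count, SD, n = 3). The nuclear count was thus lower in litters 1 and 2 and higher in litter 3. Across A6393T, at the end of the copy, the mitochondrial chromosome had 5010, 3596 and 7411 alignments and the nuclear copy 537, 370 and 898 (11.0% ± 0.956, SD, n = 3). Most of these mitochondrial alignments also ran past the aligned end of the copy at base 6390, so this share is not that of a single difference. Alignments starting at base 6390 hold A6393T alone and numbered 48, 40 and 85 on both chromosomes. At base 6393 there were 39, 22 and 64 against 30, 20 and 57 on the copy. Past the Gm28439 end the values were 1163, 756 and 4940 against 37, 33 and 275 (4.37% ± 1.19, SD, n = 3).

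Between the stretches of 1080 and 231 bases the offset to the mitochondrial chromosome moved by 1 base. From mitochondrial base 9762 to base 9892 the distance was 130 bases, and on chromosome 1 it was 131. The annotation has the same extra base: from the last aligned base of Gm28438 (9803) to the first of Gm10222 (9877) the mitochondrial distance was 74 and the nuclear distance 75. The gene between them is mt-Tr, a transfer RNA gene (9808 to 9875). The nuclear sequence there was not used here, so the extra base is not shown.

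On chromosomes 2, 12, 10 and 6 the copies were placed by single start positions, since longer identity was rare or absent. For each block the offset was sought at which most start positions with at least 20 alignments had identical counts in all 3 libraries. The 2222-base block on chromosome 2 had 318 of 1225 identical start positions at its best offset, covering mitochondrial bases 5415 to 7440 in reversed orientation, against 3 at the next best. The 738-base block had 36 of 182, at the same offset (bases 4696 to 4903), against 2. The 197-base block had 3 of 78 (bases 7515 to 7616), against 1, so its place rests on few positions. Its offset differed by 12 bases from that of the other blocks, as many as Gm13341 lacks.

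The smaller copies matched a ribosomal RNA gene and the noncoding control region. The chromosome 12 block had 202 of 271 start positions identical at its best offset, against 3 at the next, and lay on mitochondrial bases 15675 to 16039 in the same orientation. The chromosome 6 block had 49 of 153, against 1, and lay on bases 15654 to 15864, reversed. Both lie beyond mt-Tp, the last annotated gene, in the control region, where replication of the mitochondrial DNA begins. The chromosome 10 block had 51 of 240, against 2, on bases 1515 to 1821, reversed, inside mt-Rnr2, the large ribosomal RNA. No sequence of these 3 copies was in the tables used, so their label as nuclear copies rests on the counts alone.

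The number of alignments on a copy fell with the number of differing bases. On chromosome 2, all 299 start positions with at least 20 mitochondrial alignments and 0 differing bases in the 72 had identical counts on both chromosomes in all 3 litters. All 443 start positions of this kind, those with fewer alignments included, held 20994, 15879 and 38251 alignments on either chromosome in litters 1, 2 and 3. The percentages that follow are likewise taken over all start positions of a kind, and the identical ones are counted among those with at least 20 mitochondrial alignments. With 1 differing base, 42 of 370 were identical, and the copy held 92.7%, 92.2% and 93.0% of the mitochondrial count (92.6% ± 0.426, SD, n = 3). With 2 differing bases, 2 of 552 were identical and the copy held 71.9%, 71.0% and 70.4% (71.1% ± 0.780, SD, n = 3). With 3 it was 0 of 374, at 30.2%, 28.9% and 32.1% (30.4% ± 1.62, SD, n = 3). With 4 or more it was 0 of 155, at 0.446%, 0.421% and 0.537% (0.468% ± 0.0611, SD, n = 3), or 39 of 8753, 26 of 6174 and 118 of 21975 alignments. For the mt-Co1 copy alone, the one whose windows are printed, the mean at 4 or more was 0.857%. The litters lay close together at each number, and the ranges of neighbouring numbers did not overlap. Windows overlap and share reads, so they are not separate observations, and no test was made.

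**Figure D3:**
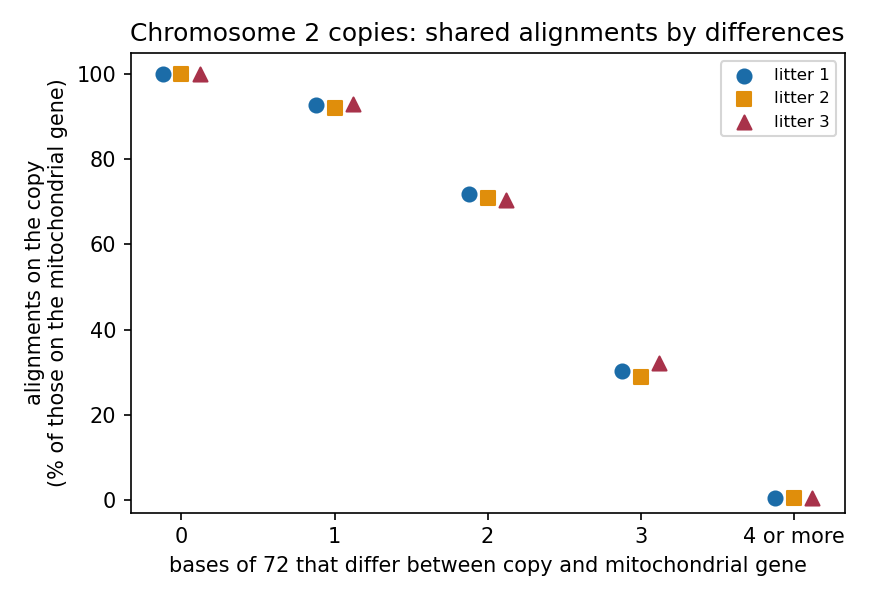
Alignments on the chromosome 2 copies as a percentage of those on the mitochondrial genes, against the number of the 72 aligned bases that differ, with 1 point per litter. The points fall from 100% at 0 differences to 30.4% (mean) at 3 and 0.468% at 4 or more, and the litters nearly coincide.

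Chromosome 1 gave the same picture at 0 differing bases, where all 2158 testable start positions inside its 7 pseudogenes had identical counts. The 3636 start positions of this kind, those with fewer alignments included, held 103767, 70826 and 142279 alignments on each chromosome. Only 7 start positions had 1 differing base, of which 2 were identical, at 93.6% ± 2.40 (SD, n = 3).

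The windows printed above follow the same order with single counts. The window with 0 differences had 664, 555 and 1844 alignments starting at it in litters 1, 2 and 3, on the mitochondrial chromosome and on chromosome 2 alike (mm9 bases 22444774 to 22444845). The window with C5640T had 85, 46 and 2780 on the mitochondrial chromosome and 74, 37 and 2502 on the copy. The window with 2 differences had 242, 131 and 1792 against 125, 68 and 927. Litter 3 had the highest counts in these windows, which were picked by their total over litters. The window with 3 differences had 793, 672 and 3104 against 175, 125 and 914, and the window with 4 had 125, 129 and 1305 against 0, 0 and 4.

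Within a class the share still varied from one start position to the next. Over start positions with at least 50 mitochondrial alignments, summed over litters, it ran from 43.0% to 100% at 1 difference (median 94.4%, 259 positions). It ran from 14.8% to 97.9% at 2 differences (median 75%, 389 positions) and from 9.66% to 72.6% at 3 (median 32.6%, 282 positions). At 4 or more it ran from 0% to 14.0% (median 0%, 126 positions). Neighbouring classes thus overlapped at single positions although their totals did not. For a single difference, its place in the alignment went with small changes only. The share was 93.9% ± 1.03 (SD, n = 3) with the difference within 9 bases of the nearer end, 89.9% ± 0.576 at 10 to 19 bases and 93.2% ± 0.411 at 20 to 35 bases.

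**Figure D4:**
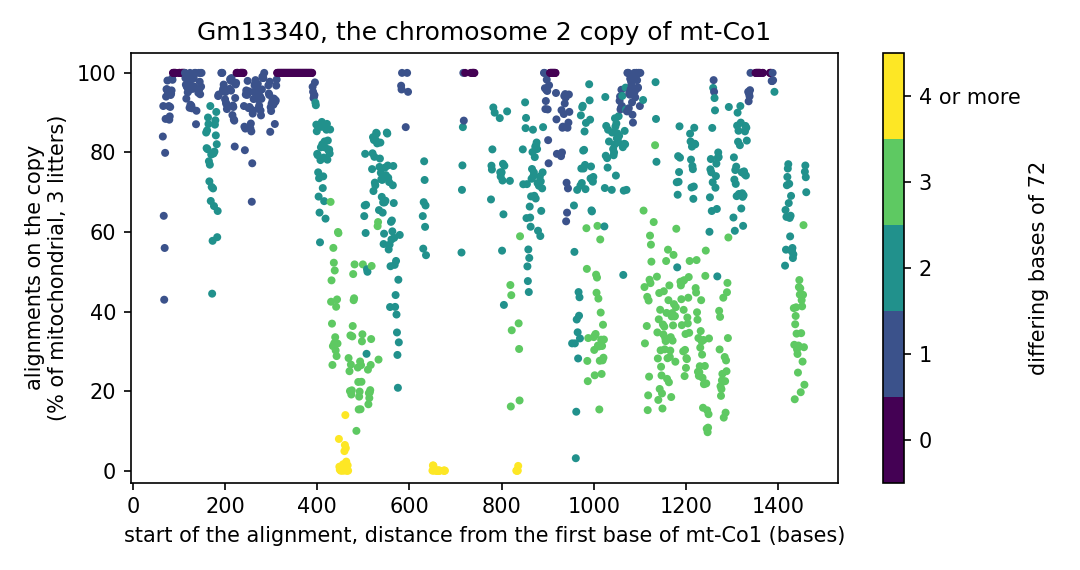
Alignments starting at each position of Gm13340 as a percentage of those on mt-Co1, summed over the 3 litters, against the distance in bases from the first base of mt-Co1. Points are start positions with at least 20 mitochondrial alignments, coloured by the number of differing bases. All positions with 0 differences lie at 100%, and those with 4 or more lie at 14.0% or below.

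The count on a copy hardly ever exceeded the mitochondrial count at the same start position. Where the copy held fewer alignments, any that lay on the copy alone would not be seen in this way. The offsets were also chosen on these same counts. Over the chromosome 1 block, leaving out alignments that touch the gap around the extra base, the copy held 113916, 78331 and 162055 alignments, of which 4, 6 and 7 exceeded the mitochondrial count at their position (0.00516% ± 0.0022, SD, n = 3). At 7 of 2902 start positions with at least 20 alignments on both chromosomes together the nuclear count was above the mitochondrial count in any litter. Over the 2222-base block of chromosome 2 the excess was 0, 4 and 0 of 56020, 41683 and 116550 alignments. On chromosome 12 it was 0, 0 and 1 of 14299, 12791 and 19710, on chromosome 10 it was 0, 1 and 1 of 8462, 7795 and 16425, and on chromosome 6 it was 1, 3 and 4 of 4696, 5190 and 6642. Equal counts at both places do not tell from which of them an RNA came. Over whole blocks the copy held 98.9% ± 0.081 of the mitochondrial count on chromosome 1, 97.6% ± 0.408 on chromosome 12, 77.3% ± 1.73 on chromosome 6, 72.3% ± 1.31 in the 2222-base block of chromosome 2 and 65.3% ± 8.38 on chromosome 10 (SD, n = 3 each). On chromosome 10 the litters lay apart, at 62.4%, 58.9% and 74.8%. The 738-base block of chromosome 2 holds the 510 bases of Gm13339, the mt-Nd2 copy, and further bases beyond it. Over the whole block the values were 51.2%, 51.9% and 34.5%, with litter 3 the lowest. The mt-Nd2 part was not taken apart from the rest here.

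Seen from the mitochondrial chromosome, the stretches covered 4358 of 16299 bases (26.7%) and a smaller share of its depth. For litter 1 the share was 19.7%, with a 95% Wilson interval from 19.6 to 19.8. For litter 2 it was 17.8% (17.7 to 17.9), and for litter 3 it was 16.2% (16.1 to 16.2). Litter 3 was the lowest. The intervals are narrow at this depth and do not measure the spread between litters, which was 17.9% ± 1.79 (SD, n = 3).

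The stretches touched 12 mitochondrial genes. The whole depth (100% in each litter) of mt-Co2, a catalytic subunit of cytochrome c oxidase, of mt-Atp6 and mt-Atp8, subunits of the ATP synthase, and of mt-Co3, a further oxidase subunit, lay in stretches that also stood on chromosome 1. The same held for the transfer RNA genes mt-Ts1, mt-Td and mt-Tk. For mt-Nd4l, a complex I subunit, it was 99.4% ± 0.239 (SD, n = 3), and for mt-Nd3, another one, 70.7% ± 3.07. For mt-Nd4 it was 58.3% ± 1.96, for the transfer RNA gene mt-Tg 23.0% ± 6.63 and for mt-Co1, the main oxidase subunit, 21.3% ± 3.86. Among these genes mt-Co1 had the highest mean mitochondrial depth per 1e6 alignments, with 85.9, 73.6 and 215 in litters 1, 2 and 3. The next by its mean, mt-Nd4l, had 56.0, 44.8 and 227. Both were far higher in litter 3. In that litter mt-Nd4l was above mt-Co1, while in litters 1 and 2 it lay below mt-Nd4, mt-Co2 and mt-Atp6. The depth of mt-Atp6 was 70.7, 53.6 and 70.8, so that litters 1 and 3 were nearly level there.

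Litter 3 was higher than the other litters in the intervals as on the mitochondrial chromosome. Divided by the mean of the other litters, its level was 1.78 on chromosome 1, 2.35 on chromosome 2, 1.52 on chromosome 12, 2.11 on chromosome 10 and 1.78 on chromosome 6. The ratio was 1.96 for the 5 intervals together and 2.04 for the mitochondrial chromosome. On that chromosome it was 1.75 inside the stretches and 2.11 outside them. With each start position counted once, the ratio of the 5 intervals was 1.12, and without a single one of the other litters it was 1.76 to 2.20. Counted once, a start position used in every litter adds the same to each before scaling, whatever its depth. The value of 1.12 therefore does not measure the size of the excess in depth. Each litter is a single library, so these ratios have no replicate check.

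Within the intervals the excess of litter 3 was uneven. Of the 93 covered bins, 73 had their highest scaled depth in litter 3, 19 in litter 1 and 1 in litter 2. The lowest was litter 2 in 78, litter 1 in 9 and litter 3 in 6. The order of the litters was not counted over all covered bins of the genome. Neighbouring bins also share alignments, so nothing particular to these bins is read from the counts. By interval, litter 3 was highest in 34 of 48 bins on chromosome 1, in 28 of 33 on chromosome 2, in 4 of 4 on chromosome 12, in 6 of 7 on chromosome 10 and in the only bin on chromosome 6. The same ratio, taken bin by bin, had a median of 1.92 and ran from 0.306 to 6.67. The highest ratio was on chromosome 10 (95540301 to 95540400), with a scaled depth of 17.1, 13.5 and 102 in litters 1, 2 and 3. The lowest was on chromosome 2 (22445301 to 22445400), at 0.607, 0.186 and 0.121, where depth was slight. On chromosome 1 the bin from 24619301 to 24619400, in the mt-Nd4l part of the copy, stood at 67.1, 56.8 and 281. The bin from 24620001 to 24620100, where the mt-Co3 and mt-Tg parts meet, stood at 9.13, 6.87 and 3.15. These 4 bins were chosen after their values were seen.

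**Figure D5:**
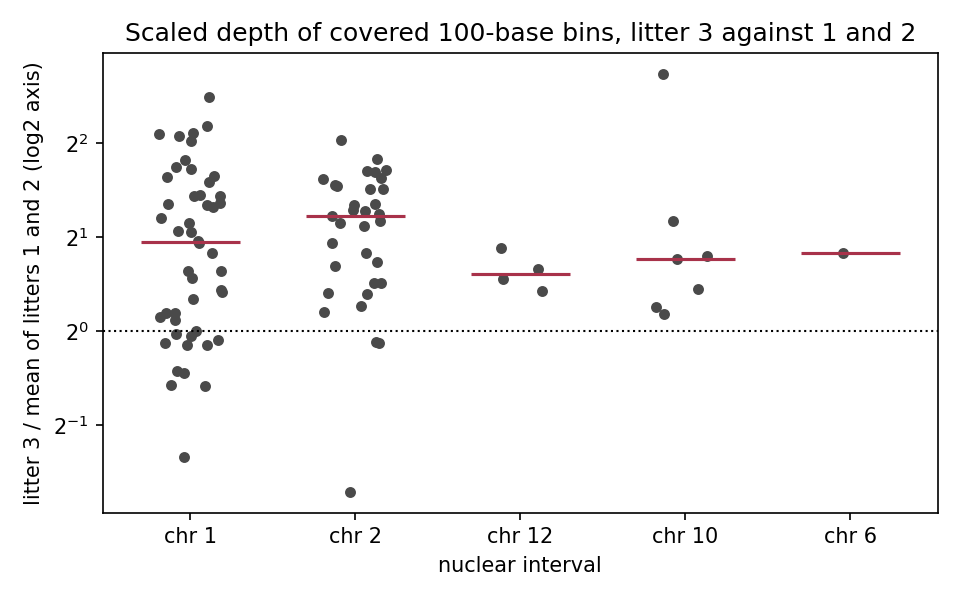
Scaled depth in litter 3 divided by the mean of the other litters for each of the 93 covered bins, on a log2 axis, by interval. Lines are medians and the dotted line marks equal depth. Most bins lie above 1, and those on chromosomes 1 and 2 spread to both sides of it.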

How the data were processed

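The authors deposited 1 coverage track per litter, a signal that gives the number of alignments over each base, not scaled to library size. The submitters' processing notes name Bowtie and mm9. Bowtie's version, its mismatch limit and how many placements it reported for a read were not given in the sources used here. The tracks came from lanes 3, 4 and 8, per the file headers, so lane and litter cannot be told apart. Isolated alignments are 72 bases long in these tracks, and start counts were recovered from the steps in depth on that basis (0 negative counts). Depth was scaled to 1e6 alignments of the library (35183199, 31787887 and 32028802). Identical stretches, start positions and ratios were computed with Python 3.11.15 and NumPy 2.4.6, and 95% Wilson intervals with SciPy 1.17.1. The search code was checked on simulated data in which exact copies of the counts had been planted. There 3 of 3 copies long enough were recovered with 0 false stretches. This does not measure how the search performs on the real tracks. Sequences of mitochondrial genes and pseudogenes are GENCODE M21 transcripts (GRCm38), aligned locally with Biopython 1.88 (match 1, mismatch -1, gap opening -3, extension -1). No mm9 sequence was used.

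The members, lists and tests were chosen with earlier results of these data known, and the comparison by number of differences was added after seeing the data. With 1 group no test between groups was made. All intervals and stretches are reported, with the highest bin of each interval, the 5 highest outside stretches and the mitochondrial genes that a stretch touches. Alternatives were the scaling, the bin and stretch definitions, single start positions and leaving out each litter.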

Additional observations from a re-analysis of the deposited data

How the results depend on the processing

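Of the 91 recomputed values, 71 moved by less than the SD over litters or, for counts, by less than 1.5 times. A mean of 3 litters cannot move by its own SD when 1 of them is dropped, so that alternative says nothing about the stability of means. Counting each start position once gave 751 CPM on chromosome 1, 450.5 on chromosome 2, 62.5 on chromosome 12, 60.6 on chromosome 10 and 20.1 on chromosome 6, and a ratio of litter 3 to the others of 1.12. That ratio is limited by construction, as a start position used in every litter counts alike whatever its depth. Leaving the 100 highest windows out of the library total gave 5487 CPM on chromosome 1, 726 on chromosome 12, 503 on chromosome 10 and 58.0 on chromosome 6, and a ratio of 1.67. Leaving out the mitochondrial chromosome gave a ratio of 1.99, and leaving out litter 1 or litter 2 gave 2.20 and 1.76, against 1.96. These changes were judged against counting error only, as a ratio of single libraries has no SD. Covered bins numbered 180 when made shorter by a factor of 2 and 24 when made longer by a factor of 5, by construction. Stretches in the same orientation alone covered 100 bases, held 0.597% of mitochondrial depth and left 6773 CPM outside, as the chromosome 1 copy is reversed. A minimum length of 72 bases gave 4442 identical bases and 200 gave 4258. With the mt-Co1 copy alone, an alternative added after seeing the data, the share at 4 or more differences was 0.857%. The cause was not tested for the scalings. No paired analysis was possible because all litters belong to 1 group.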
